A study of Mus musculus with 18 samples.

Results

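The response to aristolochic acid was compared between mouse kidney cortex with and without Klf15 in the proximal tubule. For each gene the change from vehicle to 2 weeks of toxin in one genotype was set against the same change in the other. This genotype by toxin interaction used 12 of the 18 libraries of the series, 3 in each of 4 groups. It was computed on log2(RPKM + 1), where RPKM is the read density of a gene scaled by its length and the depth of the library. The value is the toxin effect in the knockout minus the toxin effect in the floxed control, so a negative interaction means that the knockout ended lower than both separate effects would give.

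All mice were C57Bl/6. The control genotype, Klf15fl/fl, carries floxed alleles of Klf15 and is called fl/fl here. The knockout, Klf15PTKO, lacks the gene in the proximal tubule and is called PTKO. Each genotype received DMSO as vehicle, or aristolochic acid I for 2 weeks (AA 2wk). A further group of each genotype was left for 2 weeks of remodeling after the toxin (AA 4wk). Those libraries enter here through the shared estimate of the spread and as values beside the 2-week ones. The sources used here do not give the Cre line, the exons removed, the age and sex of the mice or the week of the DMSO libraries. No group is labelled as carrying Cre with intact Klf15, so effects of Klf15 loss and of Cre cannot be told apart. Whether the 3 libraries of a group came from separate mice is not stated in the labels. The p-values therefore measure the spread between these libraries, which may be technical.

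Klf15 is a zinc finger transcription factor of the Krüppel-like family, whose members bind GC-rich and CACCC-type sequences. It is known as a regulator of amino acid and fat metabolism, is induced by glucocorticoids and cycles with the body clock in several organs. Aristolochic acid is a plant toxin that organic anion transporters carry into proximal tubule cells, where its metabolites form DNA adducts, and the segment loses its transport and fuel-burning genes as it is damaged.

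The 12 libraries held 12.3 to 21.9 M reads, as recovered from the steps between RPKM values, and 11323 to 13093 genes reached 1 RPKM in each. Library number 3 was the shallowest of each AA 2wk group, at 12.5 M (fl/fl) and 12.4 M (PTKO). These libraries also stood apart from the others of their group. Their correlation with the other 2 libraries, across genes, was 0.944 to 0.965 in both genotypes, against 0.980 between fl/fl numbers 1 and 2 and 0.987 between PTKO numbers 1 and 2. The proximal tubule markers identified the tissue: all 30 were tested, and Slc34a1, the main phosphate carrier of the segment, lay between 2249 and 2824 RPKM in every DMSO library. Of 7 erythroid genes, 5 were listed at 0 in all 12 libraries.

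For most genes a difference between the genotypes in their response to 2 weeks of toxin was not detectable at this precision. Of 13624 tested genes, 2 had an interaction at an adjusted p under 0.05, which is 0.0147% of the tested genes. Both were negative. They were Hprt, the purine salvage enzyme hypoxanthine phosphoribosyltransferase, at -1.90 ± 0.20 (log2 with SE, limma with Benjamini-Hochberg adjustment, adjusted p = 0.00108), and Tmem86a, a lysoplasmalogenase of ether lipid breakdown, at -1.42 ± 0.20 (adjusted p = 0.0181). With library quality weights the same test called 158 genes, 37 positive and 121 negative. Those weights were estimated gene by gene, since limma's REML estimate did not converge. With the 12 libraries alone it called 1, and without fl/fl AA 2wk number 2 it called 8. Without adjustment, 730 genes had p under 0.05, 5.36% of those tested, where 5% would be 681.2. Of these, 188 were positive (1.38% of the tested genes) and 542 negative (3.98%).

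The precision behind this small number was moderate. The median standard error of an interaction was 0.21, and the median half-width of its 95% interval was 0.44. For 11016 genes (80.9%) the whole interval lay within 1 log2 unit of 0, taken 1 gene at a time. Across genes, the middle 90% of estimates lay between -0.54 and 0.37, with a median of -0.06. The median moved to -0.01 with median-of-ratios scaling and to 0.01 with quantile normalization.

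The toxin itself changed most genes in both genotypes. In fl/fl, 6864 genes rose (50.4% of the tested genes) and 1660 fell (12.2%). In PTKO, 6251 rose (45.9%) and 1947 fell (14.3%). Rises made up 80.5% of the calls in fl/fl and 76.3% in PTKO. That split depends on scaling, and was 50.2% and 49.5% with median-of-ratios scaling and 44.8% and 46.7% with quantile normalization. The median of all tested genes was 0.33 in fl/fl and 0.29 in PTKO as deposited, -0.01 and 0.00 with median-of-ratios scaling and -0.07 and -0.04 with quantile normalization. Toxin effects near these medians are therefore read against them.

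Between the genotypes, 5576 genes were called higher in both, 1446 lower in both and 8 in opposite directions. Another 1494 were called in fl/fl alone, and none of these had a called interaction. A further 1168 were called in PTKO alone, of which 1 had one. The effects in fl/fl and PTKO, which share no library, had a Pearson r of 0.93 and a Spearman rho of 0.90 across the 13624 genes. Genes are not independent replicates, and no p is given. Toxin took 73.4% of the summed squares over all genes, genotype 2.21%, the interaction 2.34% and the spread within groups 22.0%.

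**Figure D1:**
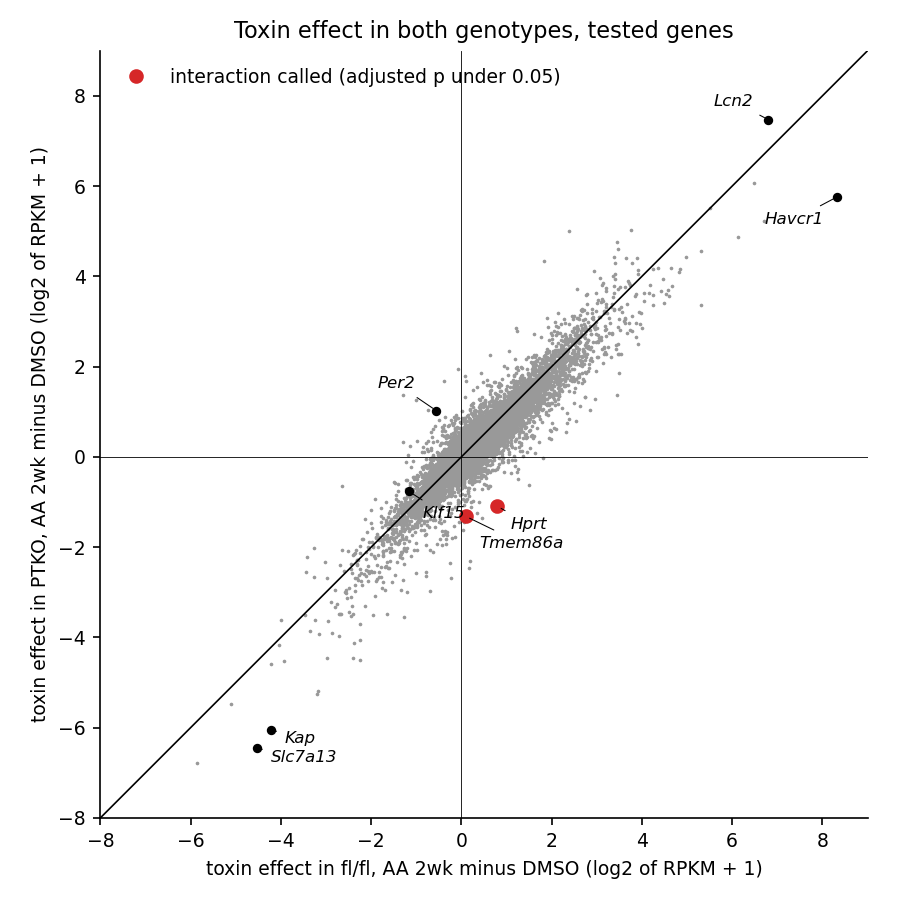
Toxin effect in fl/fl (horizontal) against toxin effect in PTKO (vertical) on the log2(RPKM + 1) scale, 1 point per tested gene, with the line of equal effects. Most genes follow the line (Pearson r 0.93 across genes), and the 2 called genes, Hprt and Tmem86a (red points), lie below it, while black points mark 6 uncalled genes named in the text.

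Hprt rose with toxin in fl/fl and fell in PTKO. In fl/fl it stood at 53.5, 48.4 and 61.6 RPKM in DMSO and at 88.1, 106 and 91.8 RPKM at AA 2wk. In PTKO it stood at 20.9, 15.9 and 15.1 RPKM in DMSO and at 7.02, 8.15 and 7.29 RPKM at AA 2wk. None of the 4 groups overlapped with another, and the order was the same in every library: fl/fl with toxin highest, then fl/fl with vehicle, PTKO with vehicle and PTKO with toxin.

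The ratio of the means was 1.75 with toxin in fl/fl (0.80 ± 0.14 in log2, adjusted p = 0.000229) and 0.433 in PTKO (-1.10 ± 0.14, adjusted p = 2.0e-05). The PTKO mean was 31.7% of the fl/fl mean in DMSO and 7.84% at AA 2wk, so a genotype difference already present with vehicle (-1.61) widened with toxin (-3.50). Without a group labelled as carrying Cre with intact Klf15, effects of Klf15 loss and of Cre on Hprt cannot be told apart. The 95% interval of the interaction ran from -2.32 to -1.48. At AA 4wk, in a comparison that uses the same DMSO libraries and called 1 gene (0.00734%), the value was -1.95 (adjusted p = 0.000756). The interaction was called under all 32 alternative settings, from -2.09 to -1.76, with adjusted p from 0.000278 to 0.0132. The rise in fl/fl had an adjusted p of 0.0520 with median-of-ratios scaling, at 0.40.

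Tmem86a fell with toxin in PTKO, from a higher starting level than in fl/fl. In PTKO it stood at 31.1, 29.0 and 35.2 RPKM in DMSO and at 12.8, 14.0 and 9.85 RPKM at AA 2wk. In fl/fl it stood at 16.9, 19.3 and 14.8 RPKM in DMSO and at 17.4, 16.0 and 21.7 RPKM at AA 2wk, and these ranges overlapped. PTKO was above every fl/fl library with vehicle and below every one with toxin.

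The toxin effect was -1.32 ± 0.14 in PTKO (adjusted p = 3.86e-06) and 0.10 ± 0.14 in fl/fl (adjusted p = 0.548). In fl/fl its sign depends on scaling, at -0.28 (adjusted p = 0.0480) with median-of-ratios scaling. The genotype difference went from 0.86 in DMSO to -0.55 at AA 2wk, and the 95% interval of the interaction ran from -1.83 to -1.0. At AA 4wk the interaction was -1.01 (adjusted p = 0.376), with the same DMSO libraries in both. The 2-week call held in 24 of the 32 alternatives, with adjusted p from 0.000278 to 0.194. It was lost in the other 8, among them the 12 libraries alone and the fits without fl/fl DMSO number 1 or 3, PTKO DMSO number 1 or 3, or fl/fl AA 2wk number 1.

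With vehicle, 5 genes (0.0367% of those tested) had a called genotype difference: Hprt, Tmem86a, Smarca2, Fam102a and Gpc3. The count was 1 in several alternatives, among them no filter, quantile normalization and the 12 libraries alone, and that 1 gene was lower in PTKO. The calls of Tmem86a and Gpc3, both higher in PTKO, were lost there, as were all but 1 of the 3 lower ones. Apart from 1 gene, the calls with vehicle, among them Smarca2 and Gpc3 (adjusted p = 0.0399 each), are therefore not firm. At AA 2wk 1 gene had one (0.00734%), Hprt, and 110 genes did without fl/fl AA 2wk number 2. The 2 called interaction genes lie on different chromosomes. On GRCm38 (mm10), Hprt spans chrX:52988137-53021659 and Tmem86a chr7:47050601-47054777, both on the plus strand and both protein coding in GENCODE M21. Within 1 Mb of Hprt 7 other genes were tested and 0 were called for the interaction by limma. Their values ran from -0.64 to -0.18, with 0.062 as the lowest unadjusted p, and they include the proteoglycan genes Gpc4 (-0.30) and Gpc3 (-0.34). Gpc3 was higher in PTKO with vehicle by 1.16 (adjusted p = 0.0399). Within 1 Mb of Tmem86a 11 were tested and 0 were called, from -0.16 to 0.50, with a lowest unadjusted p of 0.334. The 250 bases before the RefSeq start of each called gene are given below to show the sequence next to the genes that carry the interaction (RefSeq, GRCm38.p6, plus strand). The RefSeq start lies upstream of the GENCODE start for Hprt, and downstream of it for Tmem86a, so that the end of the latter window lies within the GENCODE span. Capitals mark CACCC or its reverse complement GGGTG, the box bound by Krüppel-like factors.
Hprt, chrX:52987828-52988077: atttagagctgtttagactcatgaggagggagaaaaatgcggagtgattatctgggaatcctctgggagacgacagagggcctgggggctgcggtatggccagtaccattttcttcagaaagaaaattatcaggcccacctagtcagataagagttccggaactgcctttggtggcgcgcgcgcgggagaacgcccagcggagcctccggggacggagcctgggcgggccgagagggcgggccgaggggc
Tmem86a, chr7:47050390-47050639: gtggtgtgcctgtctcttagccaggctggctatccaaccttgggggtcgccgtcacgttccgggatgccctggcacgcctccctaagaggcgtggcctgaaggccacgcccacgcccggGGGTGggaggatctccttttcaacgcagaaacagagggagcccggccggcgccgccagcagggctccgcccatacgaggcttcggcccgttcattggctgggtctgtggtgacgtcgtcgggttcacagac
The Hprt window held 0 such boxes and the Tmem86a window 1. GGGCGG or CCGCCC, the GC box, was found 2 times in the first and 1 time in the second. Of 32851 promoter windows of the same length, 52.0% hold CACCC on either strand and 32.7% hold GGGCGG. These are matches of letters in a window, not sites shown to be bound.

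Klf15 itself is the gene under test. In DMSO it stood at 53, 61.3 and 65.5 RPKM in fl/fl and at 28.5, 31.9 and 32.6 RPKM in PTKO, with no overlap. At AA 2wk it stood at 22.9, 18.6 and 41.3 RPKM in fl/fl and at 12.5, 17.5 and 25.6 RPKM in PTKO, and these ranges overlapped. The PTKO mean was 51.7% of the fl/fl mean in DMSO and 67.2% at AA 2wk. Klf15 fell with toxin in both genotypes (-1.17, adjusted p = 0.00136, and -0.76, adjusted p = 0.0193). The interaction was 0.40 ± 0.36 (adjusted p = 0.968), with a 95% interval from -0.38 to 1.18, and was called in 0 of the 32 alternatives. With a single value for the whole gene, signal from deleted and retained exons cannot be separated.

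**Figure D2:**
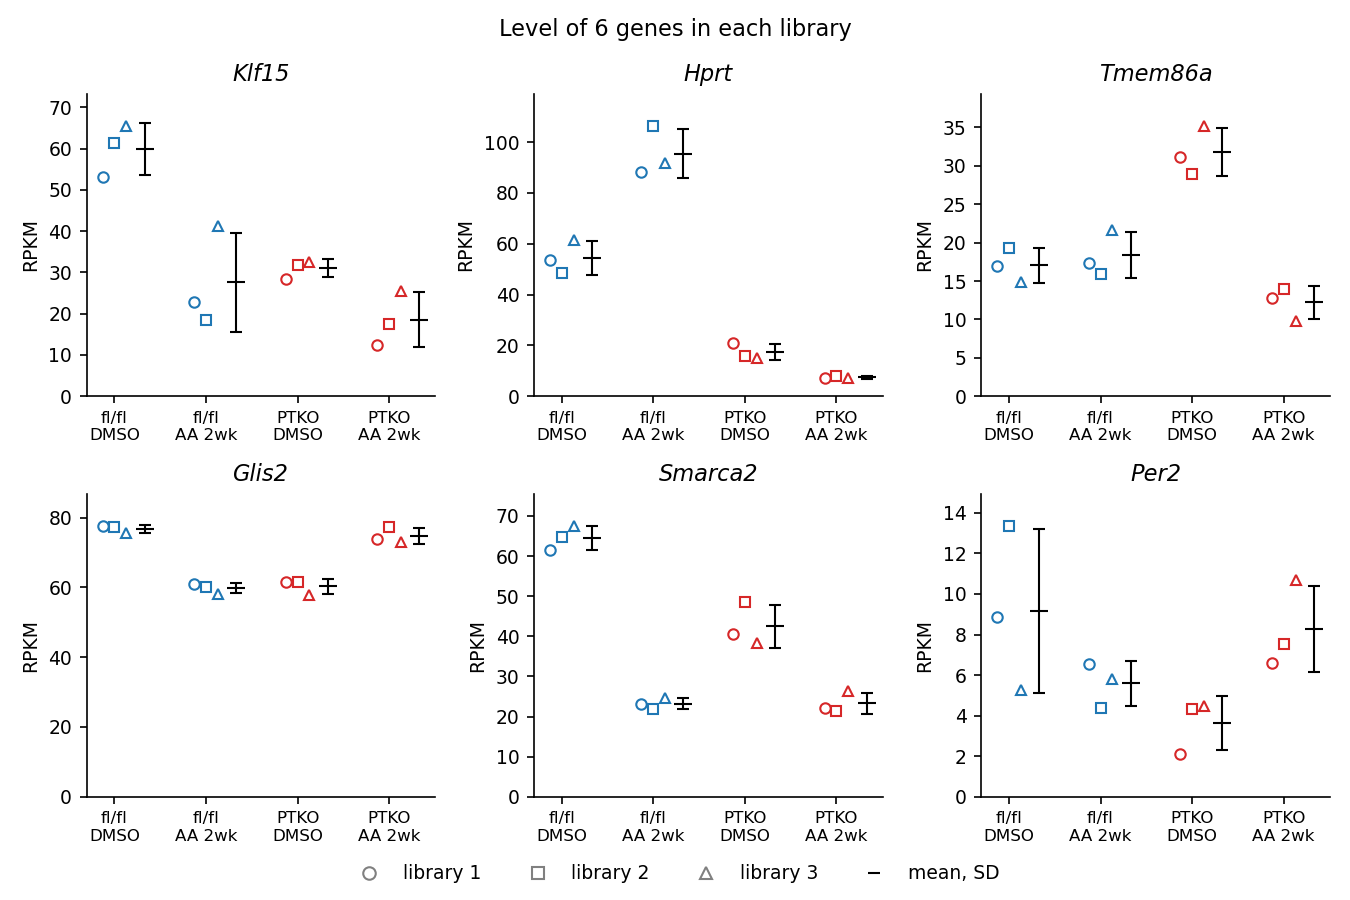
RPKM of 6 genes in each of the 12 libraries (symbols for library number 1, 2 and 3), with mean and SD of the 3 libraries beside them. The fl/fl libraries of Hprt rise with toxin while the PTKO libraries fall, Tmem86a drops from above to below fl/fl in PTKO, and Klf15 overlaps between the genotypes at AA 2wk.

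Next to the called genes, the lowest p-values belonged to genes whose genotype difference turned around with toxin. Among genes of at least 5 RPKM in 1 of the 4 groups, the 10 positive and the 10 negative interactions of lowest p were examined. All 10 positive genes were lower in PTKO with vehicle, and their PTKO value was at or above fl/fl at AA 2wk. Of the 10 negative genes, 9 were higher in PTKO with vehicle, all but Hprt, and all 10 were lower at AA 2wk. A gene picked for a large interaction tends to show such a turn, and apart from Hprt and Tmem86a none was called, so these are leads and not called differences. All 20 were called with library quality weights, which rest on the same libraries and are no independent support.

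Glis2, a zinc finger factor whose loss is known to cause kidney scarring, followed the called genes in order of p. In fl/fl it went from 77.4, 77.3 and 75.4 RPKM in DMSO to 60.8, 60.2 and 58.2 RPKM at AA 2wk. In PTKO it went from 61.6, 61.6 and 57.9 RPKM to 74.0, 77.2 and 73.1 RPKM. The levels of the genotypes changed places, with no overlap in either treatment. The interaction was 0.66 ± 0.12 (adjusted p = 0.215), and it was called in 3 of the 32 alternatives. The rise in PTKO (0.30) was -0.04 with median-of-ratios scaling. At AA 4wk the interaction was 0.22.

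Smarca2, a chromatin remodeling ATPase, differed between the genotypes with vehicle, and its levels overlapped with toxin. It stood at 61.5, 64.8 and 67.4 RPKM in fl/fl DMSO and at 40.5, 48.6 and 38.4 RPKM in PTKO DMSO. At AA 2wk it stood at 23.2, 21.8 and 24.6 RPKM in fl/fl and at 22.1, 21.4 and 26.3 RPKM in PTKO. The genotype difference was -0.60 (adjusted p = 0.0399) and then 0.00, and the interaction was 0.60 ± 0.13 (adjusted p = 0.670).

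The complement gene C2 went from 24.6, 18 and 24.1 to 24.3, 32.9 and 23.0 RPKM in fl/fl, and from 13.9, 14.7 and 16.2 to 34.8, 28.5 and 44.2 RPKM in PTKO (interaction 0.94 ± 0.22). The other positive leads were Nkain1 (0.85), Lims2 (0.74), Rnf183 (0.72), the sialyltransferase St6galnac2 (0.64), Agfg2 (0.56) and Fam120b (0.44), beside Per2, described with the clock genes. All of these had an adjusted p of 0.670.

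On the negative side, the kidney sugar carrier Slc5a10 fell in both genotypes and further in PTKO. It went from 59.8, 47.3 and 60.0 to 32.6, 11.1 and 25.8 RPKM in fl/fl, and from 78.7, 67.9 and 71.7 to 11.6, 7.14 and 7.52 RPKM in PTKO (-1.6 ± 0.40, adjusted p = 0.670). Without fl/fl AA 2wk number 2, its lowest fl/fl library with toxin, the interaction was -2.03 (adjusted p = 0.00753). Hsd17b2, which inactivates sex steroids (-1.14), also fell in both genotypes. The apolipoprotein gene Apoa4 (-1.76) fell in PTKO (ratio of means 0.098), while in fl/fl its vehicle and toxin ranges overlapped (0.552). The linker histone gene Hist1h1c rose in fl/fl (1.30) and had 0.13 in PTKO (interaction -1.16 ± 0.24, adjusted p = 0.471). Klhdc8a rose in fl/fl (1.36) and had 0.41 in PTKO, where its vehicle and toxin ranges overlapped (interaction -0.95 ± 0.18, adjusted p = 0.403). The last 3 were the membrane glycoprotein gene Gpm6a (-1.07), the Wnt antagonist Sfrp1 (-0.91) and Sccpdh (-0.49), each with an adjusted p of 0.670.

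**Figure D3:**
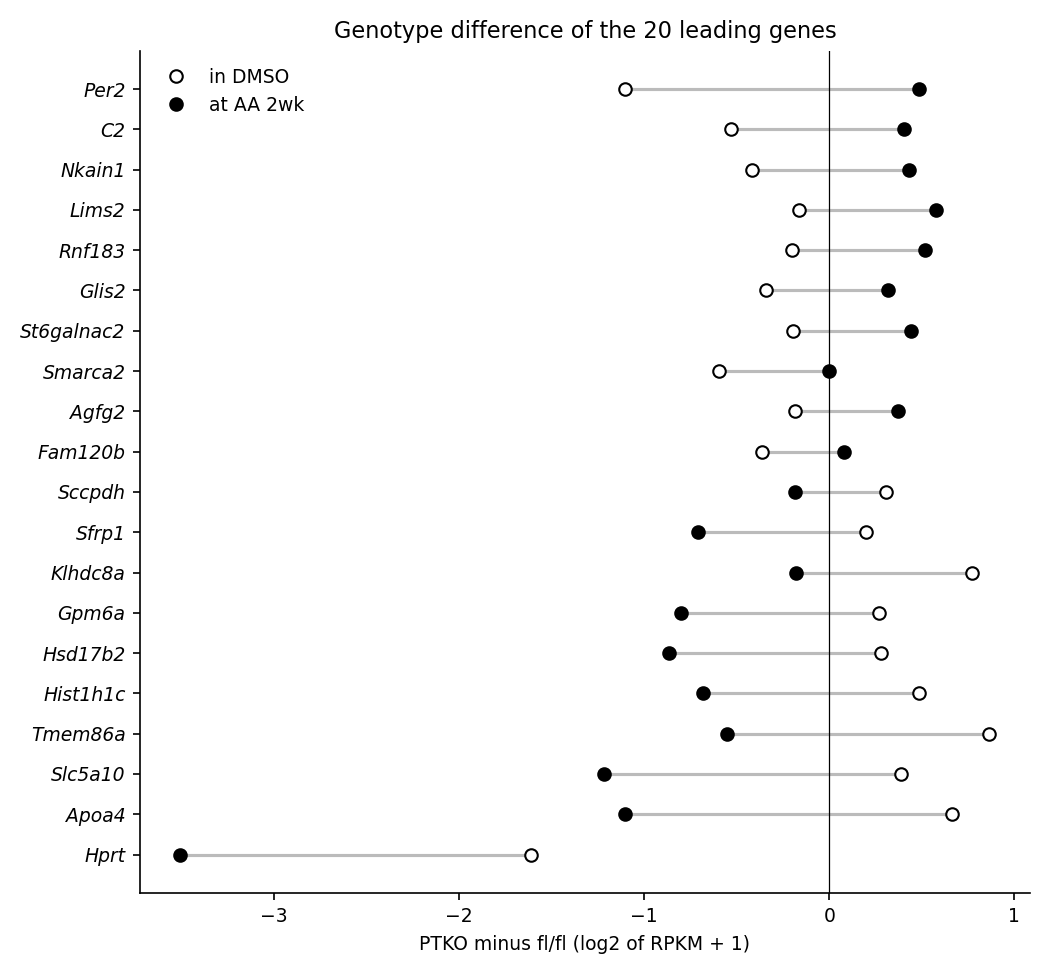
Genotype difference (PTKO minus fl/fl, log2 of RPKM + 1) of the 20 genes with the lowest interaction p in each direction, in DMSO (open) and at AA 2wk (filled). The difference crosses 0 in all but Hprt, which goes from -1.61 to -3.50, and Smarca2, which ends at 0.00; the genes were chosen for their interaction, so the crossing is a description.

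Of the 8 genes called in opposite directions by toxin, 6 were higher in fl/fl and lower in PTKO. They were Hprt, the apelin receptor gene Aplnr, Slc23a3, Sfrp1, the sphingomyelin synthase gene Sgms2 and Sccpdh. Glis2 and the microRNA gene Mir1898 went the other way. Hprt alone of the 8 had a called interaction. Aplnr (-1.3, adjusted p = 0.698) and Slc23a3 (-1.28, adjusted p = 0.670) were the next largest of the first kind. The rises of Sccpdh and Sgms2 in fl/fl (0.27 each) were -0.11 and -0.12 with median-of-ratios scaling. Mir1898 was at 0 in 3 of the 12 libraries and at most 5.54 RPKM (interaction 2.67, adjusted p = 0.670).

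Genes of the body clock held the most interactions at an unadjusted p under 0.05 of the 35 lists with at least 3 tested genes. Of 19 tested clock genes 7 were positive and 3 negative at that level, where over all tested genes the shares were 1.38% and 3.98%, and 0 were called by limma after adjustment. The list's median interaction was 0.53, beside -0.06 for all tested genes. It ran from 0.27 to 0.63 over the 32 alternatives. The genotype median of the list was -0.35 in DMSO and -0.02 at AA 2wk. Differences of opposite sign cancel in this median, so it does not give the size of the differences in single genes. Averaged over the list, the toxin libraries lay 0.01, -0.10 and 0.08 from their own vehicle mean in fl/fl and 0.27, 0.22 and 0.45 from it in PTKO, with no overlap. The 3 values of a genotype share 1 vehicle mean, so they are not 3 separate measures of the difference in response. The vehicle libraries themselves lay from -0.13 to 0.16 around that mean in fl/fl and from -0.10 to 0.08 in PTKO. The sample titles do not give the hour at which tissue was collected. Its part in the values of the clock and glucocorticoid lists was not tested.

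Per2, a repressor of the clock, stood at 8.89, 13.3 and 5.27 RPKM in fl/fl DMSO, at 2.09, 4.33 and 4.45 RPKM in PTKO DMSO, at 6.56, 4.40 and 5.82 RPKM in fl/fl AA 2wk and at 6.62, 7.54 and 10.7 RPKM in PTKO AA 2wk (1.58 ± 0.38, adjusted p = 0.670). Per1 stood at 7.13, 24.4 and 9.36 RPKM in fl/fl DMSO and at 2.70, 3.5 and 4.72 RPKM in PTKO DMSO. At AA 2wk it was 14.7, 19.3 and 21.1 RPKM in fl/fl and 12.6, 11.7 and 17.9 RPKM in PTKO (1.13 ± 0.49). For both genes every PTKO library lay below every fl/fl library with vehicle. Ciart (1.26), Per3 (1.0), Cry2 (0.58) and Cry1 (0.53), further repressors, had positive values as well, and the repressor gene Nr1d1 (REV-ERB alpha) had -0.62.

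Arntl, which encodes the clock activator BMAL1, stood at 1.28, 0.731 and 1.5 RPKM in fl/fl DMSO and at 5.16, 4.22 and 1.54 RPKM in PTKO DMSO. At AA 2wk it was 4.09, 7.01 and 2.10 RPKM in fl/fl and 4.38, 3.28 and 0.804 RPKM in PTKO (-1.55 ± 0.57, adjusted p = 0.845). Its relative Npas2 had -1.17 and its partner Clock -0.24. Within a group these genes varied widely: Per1 in fl/fl DMSO number 2 was more than 2 times each of the other 2 libraries, and Arntl in PTKO DMSO number 3 was the lowest of its group. The output gene Dbp stood at 23.4, 23.2 and 46.9 RPKM in PTKO DMSO, again with number 3 apart, and had an interaction of 0.62.

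Glucocorticoid-responsive genes had the same direction. Of 12 tested, 10 were positive and 2 negative, where 37.6% of all tested genes were positive. The median was 0.56 (0.38 to 0.72 over the alternatives). The genotype median of the list was -0.22 in DMSO and 0.11 at AA 2wk. At an unadjusted p under 0.05, 3 were positive, among them Per1, which is in both lists. Over all tested genes that share was 1.38%. In fl/fl 4 of the 12 rose and 1 fell with toxin, and in PTKO 9 rose, where 50.4% and 45.9% of all tested genes rose. The list average at AA 2wk was 0.61, 0.58 and 0.50 above the vehicle mean in fl/fl and 1.02, 0.99 and 1.19 above it in PTKO. The kinase gene Sgk1 stood at 18.5, 39.4 and 16.9 RPKM in fl/fl DMSO, at 12.2, 12.8 and 12.3 RPKM in PTKO DMSO, at 29.9, 36.4 and 39.5 RPKM in fl/fl AA 2wk and at 28.5, 27.5 and 77.9 RPKM in PTKO AA 2wk (1.02 ± 0.47, adjusted p = 0.914). Fkbp5, a chaperone of the glucocorticoid receptor, had 0.77 and Tsc22d3, which encodes the GILZ protein, 0.73. Plk3, an immediate early kinase of the p53 list, had 1.55 ± 0.41 (adjusted p = 0.670), with PTKO DMSO libraries at 1.62, 2.61 and 2.21 RPKM and fl/fl DMSO libraries at 4.59, 12.6 and 5.68 RPKM.

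**Figure D4:**
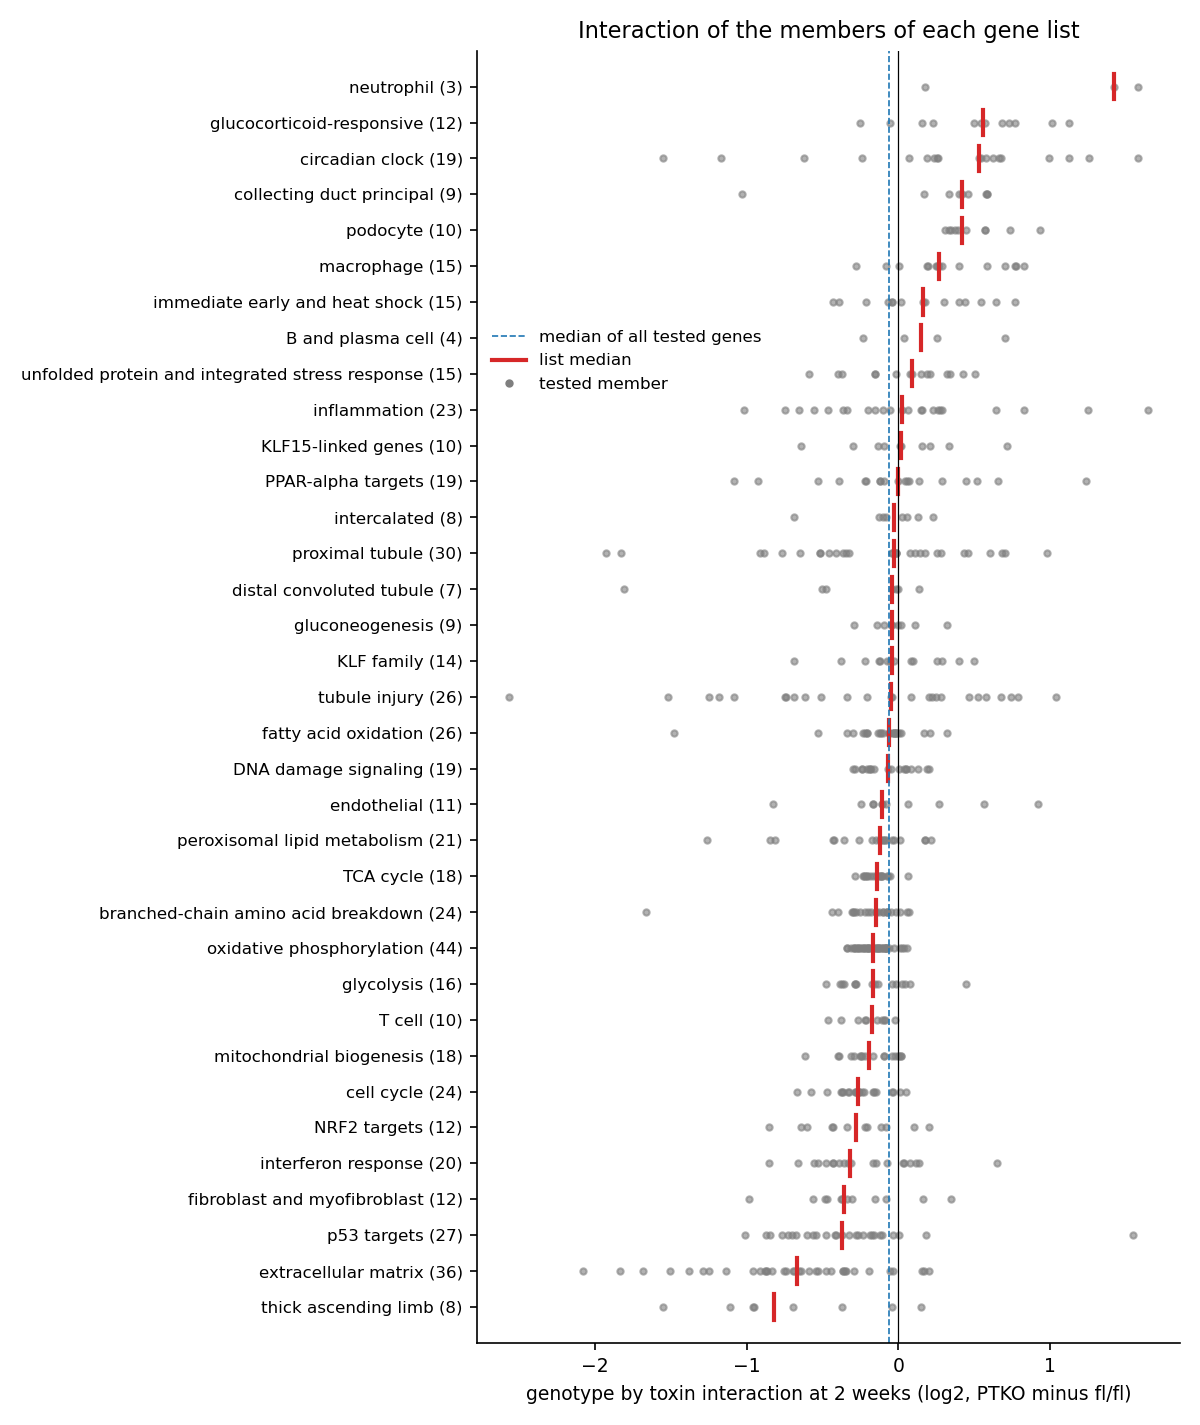
Interaction of each tested member (grey) and median (red) of 35 gene lists with at least 3 tested genes, number of members in brackets, with the median of all tested genes as a dashed line at -0.06. Glucocorticoid-responsive and circadian lists lie at 0.56 and 0.53, thick ascending limb and extracellular matrix lists at -0.82 and -0.67, and fatty acid oxidation at -0.06.

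Fatty acid oxidation genes fell with toxin in both genotypes. Of 26 tested fatty acid oxidation genes, 20 fell in fl/fl (median -0.75) and 21 in PTKO (median -0.79), and 0 rose in either. Of all tested genes 12.2% and 14.3% fell. The median interaction was -0.06, equal to that of all tested genes, and 0 members were called by limma or at an unadjusted p under 0.05. The interaction was negative in 21 of the 26, beside 8505 of 13624 tested genes. For 20 of the 26 the 95% interval lay within 1 log2 unit of 0, beside 80.9% of all tested genes. The median changed sign without fl/fl AA 2wk number 3 or PTKO AA 2wk number 1 or 2, with a range of -0.28 to 0.09.

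Cpt1a, which admits fatty acids to the mitochondrion, stood at 168, 158 and 175 RPKM in fl/fl DMSO and at 145, 144 and 152 RPKM in PTKO DMSO. At AA 2wk it was 124, 76.8 and 154 RPKM in fl/fl and 84.1, 80.9 and 154 RPKM in PTKO (interaction 0.02, interval -0.67 to 0.71). Acadm, the medium-chain dehydrogenase, went from 456, 431 and 444 to 176, 109 and 175 RPKM in fl/fl, and from 541, 387 and 527 to 109, 96.5 and 133 RPKM in PTKO. Its interaction was -0.53 ± 0.26 (adjusted p = 0.937, interval -1.09 to 0.03). Cpt2 (-0.23) and Acadvl (-0.10), a carnitine transferase and the very-long-chain dehydrogenase, were closer to 0. Their intervals do not show equal responses, only that differences within them could not be resolved.

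Among the regulators, Ppara had 0.44 and Ppargc1a -0.39, neither called. The KLF15-linked genes, a list of reported targets such as Prodh, Bcat2 and Pck1, had a median of 0.02 over 10 tested genes. With toxin 7 fell in fl/fl and 6 in PTKO, where 12.2% and 14.3% of all tested genes fell. Prodh, the first enzyme of proline breakdown, was the most positive (0.71), at 130, 118 and 121 RPKM in fl/fl DMSO, 88.0, 90.9 and 71.0 RPKM in PTKO DMSO, 44.5, 39.2 and 81.0 RPKM in fl/fl AA 2wk and 42.8, 50.7 and 89.4 RPKM in PTKO AA 2wk. As with Smarca2, the genotypes were apart with vehicle and overlapped with toxin.

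In the mitochondrial lists most interactions were small and negative. Of 44 oxidative phosphorylation genes 12 fell in fl/fl and 22 in PTKO, and 40 of the 44 interactions were negative, with a median of -0.16. Over all tested genes 12.2% fell in fl/fl and 14.3% in PTKO, and 8505 of 13624 interactions were negative. All 44 intervals lay within 1 log2 unit of 0. Branched-chain amino acid breakdown had 17 of 24 genes lower in fl/fl and 20 in PTKO (median interaction -0.15), and the TCA cycle 13 and 14 of 18 (-0.14). None of their members was called. Without fl/fl AA 2wk number 3 the 3 medians were 0.00, 0.08 and 0.00. Acox2, the peroxisomal oxidase of branched-chain fats and bile acid precursors, had the lowest peroxisomal value (-1.26), and Bcat1, the cytosolic branched-chain transaminase, the lowest of its list (-1.66).

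Tubule injury genes rose in both genotypes without a called difference. All 26 rose in fl/fl (median 2.80) and in PTKO (median 2.90), where 50.4% and 45.9% of all tested genes rose. The median interaction was -0.05. Havcr1, which encodes kidney injury molecule 1, stood at 0.713, 0.821 and 0.391 RPKM in fl/fl DMSO, at 0.978, 0.620 and 24.9 RPKM in PTKO DMSO, at 433, 573 and 579 RPKM in fl/fl AA 2wk and at 383, 579 and 58.7 RPKM in PTKO AA 2wk. PTKO number 3 was high with vehicle and low with toxin. Its interaction of -2.57 ± 1.22 (adjusted p = 0.936) had an interval of -5.17 to 0.03. Lcn2, a lipocalin of damaged tubules, stood at 353, 544 and 99.7 RPKM in fl/fl AA 2wk and at 630, 1120 and 626 RPKM in PTKO AA 2wk, higher in every PTKO library, from 0.740 to 9.34 RPKM in DMSO (interaction 0.68 ± 0.81). Of the other leading rises, Krt20, Sprr1a, S100a6, Timp1, C3 and Ankrd1 had interactions from -1.48 to -0.56, and Lyz2, the lysozyme gene of macrophages, had 0.01.

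Targets of p53 rose in both genotypes. Of 27 tested, 25 rose in fl/fl (median 2.38), and in PTKO 23 rose and 1 fell (median 1.89). Over all tested genes 50.4% rose in fl/fl and 45.9% in PTKO. The interaction was negative in 24 of 27, beside 8505 of 13624 tested genes, with a median of -0.37. At an unadjusted p under 0.05, 5 were negative and 1 positive, where the shares over all tested genes were 3.98% and 1.38%. PTKO AA 2wk number 3 had the lowest list mean, 1.46 above its DMSO mean against 2.24 and 2.35 in the other 2, and 2.27 to 2.51 in fl/fl. Without both libraries numbered 3 the median was -0.14. Cdkn1a, the cell cycle inhibitor, went from 2.38, 2.72 and 4.05 to 320, 366 and 378 RPKM in fl/fl and from 3.47, 3.09 and 3.28 to 294, 368 and 215 RPKM in PTKO (interaction -0.41 ± 0.25, interval -0.94 to 0.12). Mdm2 had -0.85 and Phlda3 -0.87, again with PTKO AA 2wk number 3 lowest.

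Extracellular matrix genes rose in both genotypes. In fl/fl 31 of 36 rose (median 2.00) and in PTKO 20 (median 1.24), where 50.4% and 45.9% of all tested genes rose. The interaction was negative in 33 of the 36, beside 8505 of 13624 tested genes, with a median of -0.67. The genotype median of the list was 0.33 in DMSO and -0.38 at AA 2wk. Summed over the list, the level at AA 2wk was 4870 to 11083 RPKM in fl/fl and 10119 to 12731 RPKM in PTKO. The list mean was 2.62, 2.47 and 1.33 above DMSO in fl/fl and 2.37, 1.84 and 0.06 in PTKO. Library number 3 was the lowest in both genotypes. The median was -0.10 without PTKO AA 2wk number 3, -0.96 without fl/fl AA 2wk number 3 and -0.44 without both, and it was negative in all 32 alternatives, down to -1.12. Col1a1, a chain of type I collagen, stood at 68.9, 49.1 and 11.7 RPKM in fl/fl AA 2wk and at 71.8, 33.5 and 2.16 RPKM in PTKO AA 2wk (-1.68 ± 1.22, adjusted p = 0.958). Col3a1 had -2.08 and Fn1, fibronectin, -0.37. Inflammation genes rose in 21 of 23 in fl/fl and in all 23 in PTKO, with a median interaction of 0.02.

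In the list of NRF2 targets, which answer oxidative stress, no interaction was called by limma. The interaction was negative in 10 of 12, beside 8505 of 13624 tested genes, with a median of -0.28 and a range of -0.42 to -0.22 over the alternatives. At an unadjusted p under 0.05, 4 were negative, where the share over all tested genes was 3.98%. Txnrd1, thioredoxin reductase, went from 46.5, 43.6 and 50.5 to 93.0, 102 and 123 RPKM in fl/fl and from 56.5, 47.0 and 50.4 to 72.2, 98.8 and 55.5 RPKM in PTKO (-0.64 ± 0.23, adjusted p = 0.845). Gclc and Gclm, the subunits of the enzyme that starts glutathione synthesis, had -0.85 and -0.43.

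**Figure D5:**
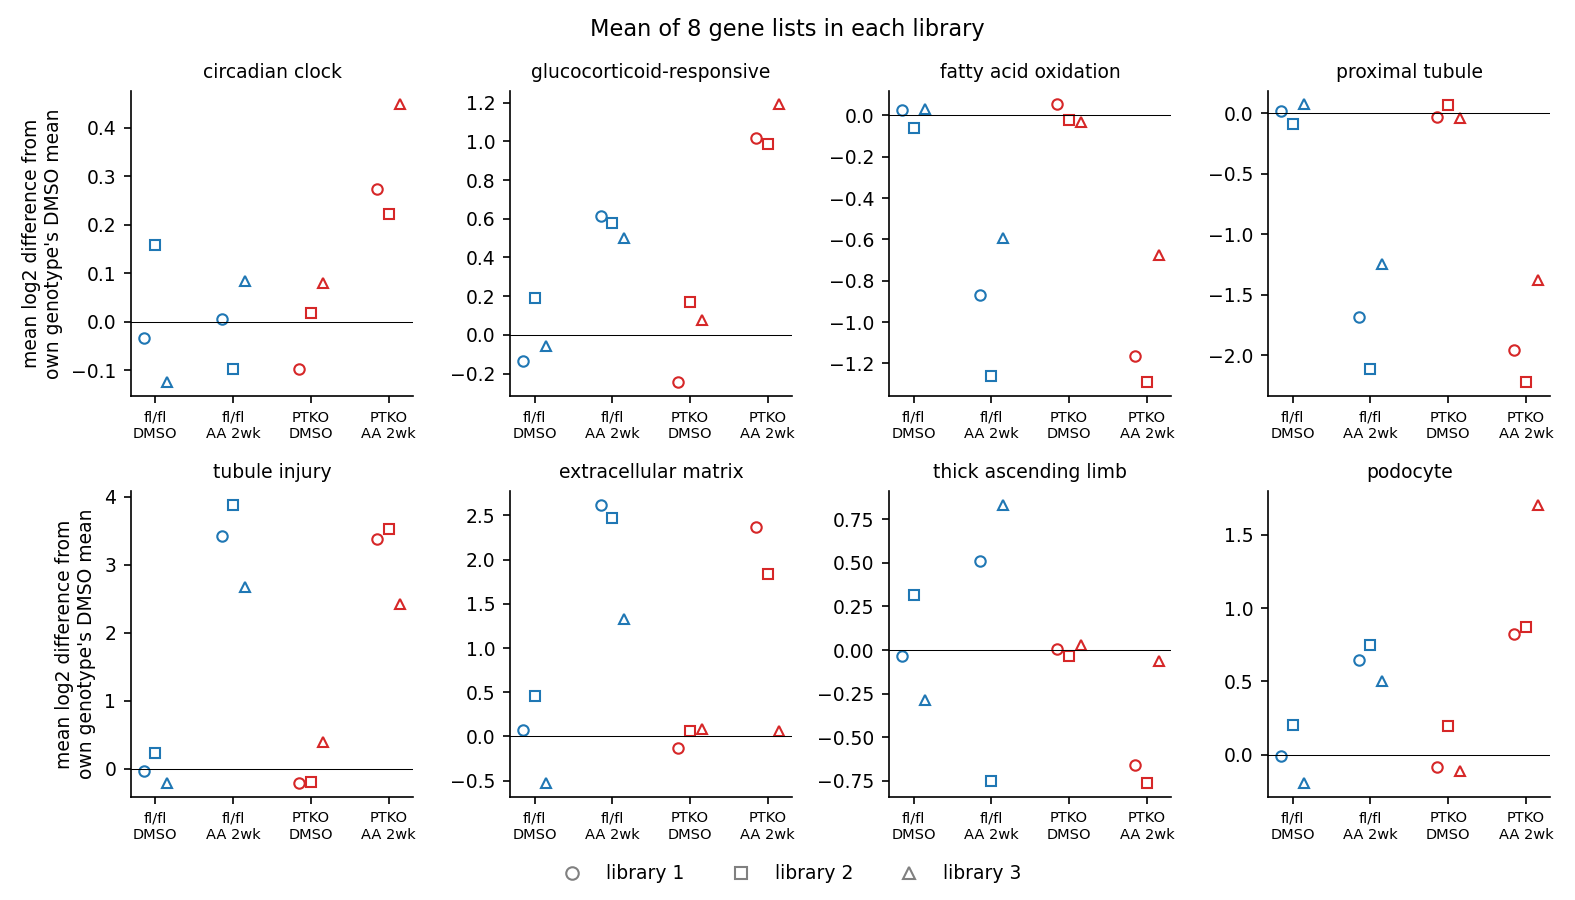
Mean log2 difference of 8 gene lists from the DMSO mean of the same genotype, in each of the 12 libraries (symbols for library number 1, 2 and 3); vertical axes differ between panels. With toxin, this difference is higher in all 3 PTKO than in all 3 fl/fl libraries for the clock, glucocorticoid and podocyte lists. It is not itself a difference in level: the genotype medians of these lists at AA 2wk are -0.02, 0.11 and 0.50, in that order. The matrix list of PTKO number 3 stays at 0.06, and the fatty acid oxidation and proximal tubule lists overlap.

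Proximal tubule markers fell in both genotypes. Of 30 markers 20 fell in each genotype, and 0 rose in fl/fl and 1 in PTKO, with a median interaction of -0.03. Over all tested genes 12.2% fell in fl/fl and 14.3% in PTKO. In whole cortex, fewer cells of a type and less RNA per cell cannot be told apart. The 10 largest falls, averaged over the genotypes, had interactions from -2.06 to 0.38, none of them called. Kap, the androgen-regulated kidney protein, fell by 4.22 in fl/fl and by 6.05 in PTKO (interaction -1.83 ± 0.78, adjusted p = 0.913). The amino acid carrier Slc7a13 stood at 38.0, 14.5 and 14.8 RPKM in fl/fl AA 2wk and at 11.7, 2.58 and 3.89 RPKM in PTKO AA 2wk, from 397 to 553 RPKM in DMSO (-1.93 ± 0.70). Slc22a7, an organic anion carrier, had -2.06 and the esterase gene Ces1g -2.03. Acsm3, an acyl-CoA synthetase, had -1.48. On the log2(RPKM + 1) scale, Slco1a1 (-0.91), Inmt (-0.37), Pzp (-0.37), Azgp1 (-0.14) and Cyp4b1 (0.38), the others of the 10, were closer to 0. That scale understates changes of low genes. The ratio of mean RPKM, AA 2wk to DMSO, was 0.00694 in fl/fl and 0.00114 in PTKO for Slco1a1. For Pzp it was 0.0269 and 0.00628. At AA 2wk the PTKO libraries of both genes lay below every fl/fl library. The ratio of Cyp4b1 went the other way, at 0.0706 in fl/fl and 0.0865 in PTKO. The endocytic receptor genes Lrp2 (0.98) and Cubn (0.71) had positive interactions.

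Markers of other cell types varied between the libraries of a group. The medians of the thick ascending limb, podocyte, collecting duct principal and neutrophil lists still kept their sign in all 32 alternatives. Of 9 collecting duct principal markers 8 had a positive interaction (median 0.42), beside 37.6% of all tested genes. Thick ascending limb markers had a median interaction of -0.82, with a range of -1.32 to -0.53 over the alternatives. Of 8 markers 7 were negative, beside 8505 of 13624 tested genes. Their list mean was 0.51, -0.75 and 0.83 in fl/fl AA 2wk and -0.66, -0.76 and -0.06 in PTKO AA 2wk, so fl/fl number 2 lay with the PTKO libraries. Their summed level at AA 2wk was 1544 to 5951 RPKM in fl/fl and 1717 to 3438 RPKM in PTKO. Umod, uromodulin, stood at 4186, 1159 and 4756 RPKM in fl/fl AA 2wk and at 1644, 1267 and 2756 RPKM in PTKO AA 2wk.

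All 10 podocyte markers had a positive interaction (median 0.42), beside 37.6% of all tested genes. In PTKO 9 of them rose and in fl/fl 4, where 45.9% and 50.4% of all tested genes rose. The list mean was 0.64, 0.75 and 0.50 above DMSO in fl/fl AA 2wk and 0.83, 0.87 and 1.70 above it in PTKO AA 2wk, with no overlap. Nphs1, nephrin of the filtration slit, stood at 8.37, 9.64 and 32.1 RPKM in PTKO AA 2wk, and without both libraries numbered 3 the list median was 0.09. Podocyte markers summed to 192 to 220 RPKM in fl/fl AA 2wk and to 233 to 486 RPKM in PTKO AA 2wk. Macrophage markers rose in 13 of 15 in fl/fl and in all 15 in PTKO (median interaction 0.27, and -0.23 without fl/fl AA 2wk number 3). Only 3 of 7 neutrophil genes in the table were tested, and PTKO AA 2wk number 2 was high in them, with S100a9 at 19.1 RPKM against 1.77 and 2.00 RPKM in the other 2. The part of these cell type differences in the interactions above was not tested.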

How the data were processed

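RNA of kidney cortex was sequenced after a stranded total RNA protocol, per the labels' protocols. The authors deposited 1 table of RPKM values for 24062 rows and 18 libraries. Per the submitters' processing notes bcl2fastq 2.19, kallisto (version not given in the sources used here) and mm10 were used; how reads were assigned to genes is not given in the sources used here. RPKM steps gave whole reads for 17579 of 17579 genes above 0 in at least 6 libraries (100%, tolerance 0.02 reads); voom on these reads called 2 interactions, Hprt and Tmem86a.

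The 13624 genes that reached 1 RPKM in 3 or more of the 18 libraries were fitted on log2(RPKM + 1), which understates changes of low genes, with limma 3.58.1 (R 4.3.3, statmod 1.5.0; 6 group means, trend and robust, two-sided, Benjamini-Hochberg, called at adjusted p under 0.05), checked on simulated data. Python 3.11.15, pandas 2.3.3, numpy 2.4.6 and matplotlib 3.10.9 made tables and plots. Named were Klf15, called genes, the 10 leading interactions per direction at 5 RPKM or more, the 10 largest toxin rises and falls, preset anchors, the extremes of each of 38 lists, and opposite-direction genes; other list members are examples chosen after their values were seen. Members and lists were chosen with earlier results of these data known. The 32 alternatives changed the pseudocount, filter, scaling, libraries, variance model, weights, block or used voom.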

Additional observations from a re-analysis of the deposited data

Results flagged for a closer look

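For 2 genes the response to 2 weeks of toxin differed between the genotypes by the test of the difference itself: Hprt at -1.90 and Tmem86a at -1.42 (log2, limma interaction). The same test at 4 weeks, which shares the DMSO libraries, gave -1.95 for Hprt, and -1.01 for Tmem86a (adjusted p = 0.376). The 2-week call of Tmem86a was lost in 8 of 32 alternatives. In groups of 3 libraries no single library was tested for standing apart.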

How the results depend on the processing

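Of 140 named genes 104 kept the sign of the interaction in all 32 alternatives, and 21 uncalled ones were called in at least 1. Of 35 lists 12 kept the sign of their median. The 2-week interaction count of 2 was 1 with the 12 libraries alone, 158 with quality weights, and 1 to 8 when each library was left out in turn (8 without fl/fl AA 2wk number 2). The 4-week count of 1 was 3 with median-of-ratios scaling and 161 with quality weights. The genotype count at AA 2wk, 1, was 2 with a pseudocount of 0.1, 2 with no filter, 11 with quality weights and 1 to 110 over single omissions (highest when fl/fl AA 2wk number 2 was dropped). The genotype count in DMSO, 5, was 1 with no filter, quantile normalization, the 12 libraries alone or eBayes without trend and robust, 1177 with quality weights, 34 without both AA 2wk libraries numbered 3, and 1 to 10 with each library left out. The cause was not tested. The quality weights, estimated gene by gene, of the AA 2wk libraries numbered 3 were 0.206 in fl/fl and 0.106 in PTKO.

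Same-numbered libraries of the 2 genotypes had correlations of deviations of 0.07, 0.20 and 0.15 in DMSO, 0.44, 0.43 and 0.66 at AA 2wk and 0.06, 0.15 and 0.22 at AA 4wk, so the numbers were not taken as pairs, and not every library correlated best with its own number. With the number within treatment as a replicate block the counts were 1 (interaction), 10 (genotype in DMSO) and 36 (genotype at AA 2wk). With the number alone as a block they were 1, 2 and 3. In both, Tmem86a was no longer called for the interaction and Hprt was.

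Toxin effects changed sign with median-of-ratios scaling for Tmem86a (-0.28), Sccpdh (-0.11), Fam102a (-0.38), Nr3c1 (-0.0385) and Sgms2 (-0.12) in fl/fl and Glis2 (-0.0379) and Fam120b (-0.0320) in PTKO. With quantile normalization they did for Sccpdh (-0.0826), Nrf1 (-0.14) and Atm (-0.40) in fl/fl and Fam120b (-0.0891), Nrf1 (-0.0377), Atm (-0.11) and Star (-0.47) in PTKO. The cause was not tested.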
